A study of Homo sapiens with 2 samples.

Results

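The genes described here are the 7 that mark how a neuron packages or makes glutamate, GABA and glycine: SLC17A6, SLC17A7, SLC17A8, GAD1, GAD2, SLC32A1 and SLC6A5. They were chosen by symbol, and all 7 were found among the 61487 genes counted in both libraries.

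A neuron releases the transmitter that its vesicles are filled with, so the vesicular transporters and the synthetic enzymes together define its transmitter type. SLC17A7, SLC17A6 and SLC17A8 encode the vesicular glutamate transporters VGLUT1, VGLUT2 and VGLUT3. GAD1 and GAD2 encode the glutamate decarboxylases that make GABA, SLC32A1 encodes the vesicular transporter shared by GABA and glycine, and SLC6A5 encodes the glycine transporter of glycinergic terminals. Many serotonin neurons of the raphe carry VGLUT3 and can release glutamate beside serotonin, which is called co-transmission. TPH2, the enzyme that starts serotonin synthesis in neurons, and FEV, an ETS-family transcription factor of serotonin neurons, are used here to mark serotonergic cells.

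The study asked what loss of FOXA2, a transcription factor of the floor plate, does to serotonin neurons made from human pluripotent stem cells. WA09 (H9) is an established human embryonic stem cell line, here with EGFP knocked in at TPH2. The group labelled WT carries that reporter, and the group labelled FKO carries the reporter and a FOXA2 knockout. Both were taken through induced serotonin neuron differentiation, EGFP-positive cells were sorted at day 42, and 1 library per group was made with the 10x Genomics 3' kit (V3), which tags each captured transcript with a unique molecular identifier (UMI).

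Several things limit these groups as models. Each is 1 library of 1 line, so clone, culture, sort and library cannot be told apart from genotype. The methods describe FOXA2 knockout lines made by inserting stop codons in an exon and by error-prone end joining, and derive the FKO reporter line from the latter. The dose of SHH agonist that these libraries received is not given in the sources used here. In a staining at day 42 the paper used a lower dose for WT than for FKO cells. Whether the libraries followed this is not stated, and such a dose difference could not be told apart from genotype. The sort selects on the TPH2 locus, so shares of cells with TPH2 are set in part by the gate. TPH2 stood at 198 and 163 CPM (UMIs of a gene scaled to a common library total), and STMN2, a marker of neurons, at 4388 and 5667.

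FOXA2 had 314 UMIs in the library labelled WT, against 1227 in the library labelled FKO, or 4.14 and 21.3 CPM. On the log2 scale FKO over WT was 2.37, and 1.77 relative to the median of all genes. Counts of transcript 3' ends do not show a stop codon or a small insertion or deletion, so they check nothing about the edit. Of the other floor plate genes, SHH (6.14 and 2.78 CPM) and CORIN (3.40 and 0.782 CPM) were lower in the library labelled FKO, and FOXA1 (2.53 and 8.62 CPM) was higher. Each direction given here rests on the labels.

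In the library labelled WT there were 11052 barcodes and 123064653 UMIs, with a median of 10959.5 UMIs per barcode. For the library labelled FKO these were 8806 and 70588747, with a median of 6669.5. The libraries shared 21 barcode sequences, 5 of them among the cells kept in both. After filters on UMIs and genes per cell, mitochondrial share and doublets, 5722 cells labelled WT and 6974 labelled FKO were kept, with medians of 12437 and 6918.5 UMIs. The mitochondrial limit of 10% removed unequal shares, since 40.4% of all barcodes labelled WT lay above it, against 13.5% of those labelled FKO.

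Levels are pooled CPM, the UMIs of a gene over all UMIs of the kept cells of a library. They count 3' ends and are not scaled for gene length. With 1 library per condition there is no replicate and no test. Intervals are exact 95% intervals (Poisson for counts, Clopper-Pearson for shares, conditional binomial for ratios) and cover counting error only. The median of the log2 ratios across the 18495 genes with at least 50 UMIs summed over both libraries was 0.59 (FKO over WT), so the ratios of the 7 genes are also given relative to this median gene.

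SLC17A8 supplied most UMIs of the 7 genes in both libraries. It had 12445 UMIs in the library labelled WT, a level of 164 CPM (161 to 167), and 6622 UMIs in the library labelled FKO, a level of 115 CPM (112 to 118). SLC17A6 had 117 and 426 UMIs, or 1.54 CPM (1.27 to 1.85) and 7.40 CPM (6.72 to 8.14). The other 5 genes stayed at or under 2.14 CPM in each library.

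**Figure D1:**
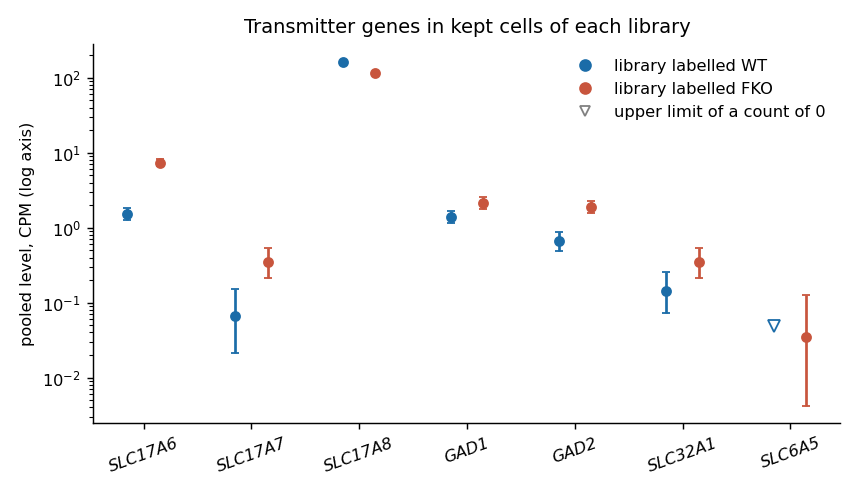
Pooled level of each of the 7 genes in CPM on a log axis, for the library labelled WT (blue) and the library labelled FKO (red), with exact 95% Poisson intervals; the open triangle is the upper limit of a count of 0. SLC17A8 stands above all others at 164 and 115 CPM, and SLC17A6 is the gene furthest apart between the libraries among those with 50 UMIs or more.

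Of the 7 genes, 4 reached 50 summed UMIs. Of these 4, 1 lay at least 2-fold above the median gene in the library labelled FKO (SLC17A6), where 12.7% of all 18495 genes did, and 1 lay at least 2-fold below it (SLC17A8), where 11.6% of all genes did. GAD1 and GAD2 did neither. The call on SLC17A8 was lost when the reference was the median of the 11699 genes with at least 500 summed UMIs (0.47). Counts of 1 among 4 say nothing about the group as a whole, and the genes are described singly.

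SLC17A8 (ENSG00000179520, chr12:100357079-100422059, plus strand, GRCh38) had a log2 ratio of FKO over WT of -0.51 (-0.55 to -0.47), or -1.10 relative to the median gene. It was lower in the library labelled FKO under both scalings. The size depended on the mitochondrial limit: with cells up to 20% included the ratio was -0.94, and the added cells labelled WT held still more of it. In cells with 10 to 20% mitochondrial UMIs, SLC17A8 stood at 387 CPM in the library labelled WT (2516 cells) and at 105 CPM in the library labelled FKO (732 cells), with medians of 10330 and 3063.5 UMIs. Whether RNA quality has a part in the difference was not tested.

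SLC17A8 UMIs were unevenly spread over cells. The 573 cells with the most SLC17A8 UMIs held 72.1% of them in the library labelled WT, and the 698 such cells held 89.2% in the library labelled FKO. The highest cell carried 71 UMIs in the former and 35 in the latter. Thus, without thinning, the transcript was found in fewer cells of the library labelled FKO, where it was more concentrated. The kept cells had medians of 12437 and 6918.5 UMIs, and the part of depth in this concentration was not tested. A SLC17A8 UMI was seen in 40.8% of kept cells labelled WT (39.6 to 42.1), against 18.4% labelled FKO (17.5 to 19.3).

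Those shares depend on depth. Each cell was therefore thinned at random to 2000 UMIs, which left out 43 cells labelled WT and 116 labelled FKO as too shallow. After thinning, 17.4% of cells labelled WT (16.4 to 18.4) and 11.2% of cells labelled FKO (10.4 to 12.0) held a SLC17A8 UMI. Thinned cells with 3 or more SLC17A8 UMIs made up 4.86% and 4.30%, and those with exactly 1 made up 9.49% and 4.90%. Among kept cells the libraries were thus closer in the share of cells rich in SLC17A8 than in the share with a single molecule. This was counted at the mitochondrial limit of 10% only. The cells at 10 to 20%, left out here, stood at 387 CPM labelled WT and 105 CPM labelled FKO.

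Free RNA in droplets gives some UMIs to cells that do not express a gene. As a reference for it, cells with at least 10 UMIs over 5 collagen-cell genes were used, and cycling cells with at least 5 UMIs of MKI67 and TOP2A. These cells passed the same sort. Whether they lack the genes, or share a droplet with another cell, was not tested. Background in what follows means the shares in these cells, not free RNA alone. In collagen cells, 2 of 65 labelled WT (3.08%, 0.375 to 10.7) and 3 of 122 labelled FKO (2.46%, 0.510 to 7.02) held a SLC17A8 UMI after thinning. Cycling cells gave 3 of 40 (7.50%, 1.57 to 20.4) and 0 of 62 (up to 5.78%). Both shares over all cells were above the collagen-cell shares of their library, and the interval of the cycling cells labelled WT reached past the share over all cells.

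These background cells were deep before thinning. The collagen cells had medians of 18399 UMIs in the library labelled WT, against 10588.5 in the library labelled FKO, and 20% and 13.9% of them held a SLC17A8 UMI unthinned. The cycling cells had medians of 23530 and 12426 UMIs and unthinned shares of 32.5% and 14.5%. An unthinned share of SLC17A8 in deep cells may therefore be partly background. Thinned shares are used for the main comparisons of libraries or classes, and shares given without thinning carry this limit.

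The labelled cell type was checked in the same way. After thinning, TPH2 was seen in 28.6% of cells labelled WT (27.4 to 29.8) and 23.5% labelled FKO (22.5 to 24.5), against 6.15% and 4.92% of the collagen cells and 5% and 0% of the cycling cells. FEV was seen in 89.2% and 76.2% of thinned cells, against 27.7% and 23.0% of collagen and 25% and 33.9% of cycling cells. Both markers were therefore more frequent over all cells than in these background cells, but FEV UMIs were also common in the latter. Pooled over all UMIs, collagen cells labelled WT and FKO had TPH2 at 30.2 and 69.6 CPM. Their FEV stood at 199 and 407 CPM. Unthinned, TPH2 was in 71.5% and 52.7% and FEV in 97.9% and 91.0% of kept cells, and 97.5% of cycling cells labelled WT held FEV, so an unthinned FEV UMI says little about a deep cell.

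The 200 bases upstream of the SLC17A8 start site are shown beside those of TPH2, since SLC17A8 was the member found most often beside TPH2. Both are reference sequence from RefSeq (GRCh38.p14), 5' to 3' on the plus strand, at chr12:100356874-100357073 for SLC17A8 and chr12:71938645-71938844 for TPH2, upstream of any annotated exon of either gene. Capitals mark GGAA or its reverse complement TTCC, the core that ETS factors such as FEV can bind, and GATA or its reverse complement TATC, the core of GATA factors.
SLC17A8: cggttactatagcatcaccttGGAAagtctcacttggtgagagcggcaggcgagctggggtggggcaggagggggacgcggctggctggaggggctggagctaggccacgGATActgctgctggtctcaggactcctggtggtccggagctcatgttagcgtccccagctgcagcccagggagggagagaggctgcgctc
TPH2: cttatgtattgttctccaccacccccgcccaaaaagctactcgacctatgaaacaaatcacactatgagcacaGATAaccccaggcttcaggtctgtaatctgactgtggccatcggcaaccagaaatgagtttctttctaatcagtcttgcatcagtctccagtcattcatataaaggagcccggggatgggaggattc
The SLC17A8 window held 1 ETS core and 1 GATA core, and the TPH2 window held 0 and 1. Of 35116 promoter windows of this length, 88.2% held an ETS core and 38.4% a GATA core. Such short letters are common, and a match describes the sequence only. All 7 genes matched a promoter entry, and the windows of the other 6 overlapped an annotated exon and are not printed.

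SLC17A6 (ENSG00000091664, chr11:22338097-22379503) had a ratio on the log2 scale of 2.26 (1.97 to 2.57) and of 1.67 against the median gene, and was higher in the library labelled FKO under both scalings. It was seen in 0.909% of kept cells labelled WT, against 2.81% of those labelled FKO, and after thinning in 14 of 5679 cells (0.247%) and 75 of 6858 cells (1.09%). No collagen or cycling cell of either library held a SLC17A6 UMI after thinning, although with 40 to 122 cells per class this allows shares of up to 2.98% in the largest class. SLC17A7 (ENSG00000104888) had 5 UMIs in the library labelled WT, against 20 in the library labelled FKO, which gives a log2 ratio of 2.40 with a wide interval (0.94 to 4.17) and a relative value of 1.81. With a mitochondrial limit of 5% the UMIs were 0 and 10, and with the 0 set at 3 that ratio is at least -1.12, which gives no direction.

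Among the genes of GABA synthesis, GAD1 (ENSG00000128683, chr2:170813213-170861151) had 106 and 123 UMIs, or 1.40 CPM (1.14 to 1.69) in the library labelled WT, against 2.14 CPM (1.78 to 2.55) in the library labelled FKO. The log2 ratio of 0.61 (0.23 to 1.003) matched the median gene, with a relative value of 0.02. GAD2 (ENSG00000136750, chr10:26216307-26304558) had 50 and 109 UMIs, or 0.6585 CPM (0.489 to 0.868) and 1.89 CPM (1.56 to 2.28), a log2 ratio of 1.52 (1.03 to 2.04) and a relative value of 0.93. So pooled GAD2 was higher in the library labelled FKO on either scale but by less than 2-fold over the median gene, with 30 of its 109 UMIs there in 1 cluster of 24 cells, and GAD1 lay at the median gene. The sign of GAD1 depended on the setting: it was -0.057 relative to the median gene of like length and -0.11 among cells with TPH2 and FEV.

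SLC32A1 and SLC6A5, the latter a carrier of the plasma membrane, were near the limit of detection. SLC32A1 (ENSG00000101438) had 11 UMIs in the library labelled WT, against 20 in the library labelled FKO, with a log2 ratio of 1.26 (0.13 to 2.47) and a relative value of 0.67. The lower end of that interval lies below the median gene, so no direction is read on the relative scale. SLC6A5 (ENSG00000165970) had 0 and 2 UMIs. The exact interval of the 0 reaches to 0.0486 CPM, and no ratio is given for SLC6A5, which was not detectable at this depth beyond these 2 UMIs.

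The question for these genes was their co-detection with TPH2 and FEV. After thinning, 1521 cells labelled WT and 1345 labelled FKO held a UMI of TPH2 and of FEV. Of these, 423 (27.8%, 25.6 to 30.1) and 239 (17.8%, 15.8 to 19.9) also held a UMI of a vesicular glutamate transporter. Nearly all of these were SLC17A8 cells, 423 in the library labelled WT, against 237 in the library labelled FKO. The share was higher in the library labelled WT, and in both it lay above the intervals of SLC17A8 in collagen and in cycling cells.

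The result of a random thinning varies with the draw. Over 5 draws the glutamate transporter share ran from 27.8% to 30.02% in the library labelled WT and from 16.3% to 18.4% in the library labelled FKO, and the share expected over all draws was 29.1% and 17.4%. The draw reported is thus the lowest of 5 for the library labelled WT, and the other draws and the expected share were chosen after seeing the data. Without thinning the shares were 48.0% of 4074 cells and 24% of 3600 cells, at median depths of 12916 and 7518 UMIs.

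SLC17A8 was also found without a TPH2 UMI. Among thinned cells with FEV and no TPH2 UMI, 14.2% (13.1 to 15.4) in the library labelled WT, against 10.5% (9.53 to 11.5) in the library labelled FKO, held a SLC17A8 UMI. With TPH2 and no FEV UMI they were 23.5% of 102 cells (15.7 to 33.0) and 14.7% of 266 cells (10.6 to 19.5). With neither marker the shares were 7.65% (5.49 to 10.3) and 6.16% (4.95 to 7.57), with intervals that overlapped those of the collagen cells. The order was the same in both libraries, highest with TPH2 and FEV, then TPH2 alone, FEV alone and neither, but the intervals of the first and second of these overlapped in both libraries, as did those of TPH2 alone and FEV alone in the library labelled FKO. Taken the other way, 42.8% of thinned SLC17A8 cells labelled WT, against 30.9% of those labelled FKO, held both markers. FEV alone or with TPH2 was seen in 93.6% and 84.0%.

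SLC17A6 showed the opposite placement. After thinning, 0 of 1521 cells labelled WT with TPH2 and FEV held a SLC17A6 UMI, which allows a share of up to 0.242%, and 3 of 1345 labelled FKO did (0.223%, 0.0460 to 0.650). Among cells with neither marker, 9 of 510 labelled WT (1.76%, 0.810 to 3.32) and 55 of 1363 labelled FKO (4.04%, 3.05 to 5.22) held one. Of the 75 thinned SLC17A6 cells labelled FKO, 73.3% had neither TPH2 nor FEV. Unthinned, 19 of 52 SLC17A6 cells labelled WT and 54 of 196 labelled FKO held both, at median depths of 16269 and 9143.5 UMIs. The unthinned share of SLC17A6 in cells labelled FKO with both markers, 1.50%, lay within the interval of the collagen cells of that library (1.64%, 0.199 to 5.80), which were deeper, so it cannot be set apart from background with these cells.

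GAD1 or GAD2 was rare in cells with TPH2 and FEV. It was found in 10 of 1521 thinned cells labelled WT (0.657%, 0.316 to 1.21) and 3 of 1345 labelled FKO (0.223%, 0.0460 to 0.650). Over the 5 draws the shares ran from 0.199% to 0.657% and from 0.0737% to 0.274%, so the draw reported is the highest for the library labelled WT and no order between the libraries is read from it. The share expected over all draws was 0.378% and 0.207%, and unthinned it was 1.69% and 1.42%. No thinned collagen cell held a GAD UMI, but 65 and 122 such cells allow up to 5.52% and 2.98%, so these shares cannot be set apart from background. Unthinned, collagen cells labelled FKO held GAD1 in 0.820% and GAD2 in 1.64% of cases.

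A decarboxylase and SLC32A1 serve the best known route of GABA release. Both were seen together, unthinned, in 7 cells labelled WT and 10 labelled FKO, of which 1 and 2 also held TPH2 and FEV. Of 15 SLC32A1 cells labelled FKO, 8 held GAD2 and 6 held GAD1, and of 11 labelled WT, 4 and 6 did. A GAD2 UMI was far more frequent in SLC32A1 cells than among all kept cells (0.932% labelled FKO, 0.384% labelled WT), and after thinning 1 of 6 SLC32A1 cells in each library held one. Cells with a decarboxylase and SLC32A1 were therefore few, and 6 of 7 and 8 of 10 of them lacked TPH2 or FEV. GAD UMIs alone were not so placed in the library labelled WT. There 69 of the 110 unthinned cells with GAD1 or GAD2 held both markers, beside 4074 of all 5722 kept cells. In the library labelled FKO, 29 of 83 GAD1 cells and 25 of 65 GAD2 cells held both, beside 3600 of 6974 kept cells.

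Pairs of glutamate transporters were also uncommon. SLC17A6 and SLC17A8 shared 12 unthinned cells labelled WT and 43 labelled FKO. Of the SLC17A6 cells, 23.1% (12.5 to 36.8) labelled WT and 21.9% (16.4 to 28.4) labelled FKO held SLC17A8, compared with 40.8% and 18.4% of all kept cells. After thinning, 3 of 14 and 7 of 75 SLC17A6 cells held SLC17A8, with intervals that reached past the shares of all thinned cells. GAD1 and SLC17A8 were found together in the library labelled WT, where 9 of 19 thinned GAD1 cells (47.4%, 24.4 to 71.1) held SLC17A8, against 17.4% of all. This draw had the highest GAD share of 5 in cells labelled WT with TPH2 and FEV, and the other draws were not counted for this pair. In the library labelled FKO 0 of 27 did, which allows up to 12.8%, beside 11.2% of all. Unthinned, they shared 52 and 22 cells, or 55.9% (45.2 to 66.2) and 26.5% (17.4 to 37.3) of the GAD1 cells. The shares of all kept cells with SLC17A8 were 40.8% and 18.4%.

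Depth bands gave the same placement of SLC17A8 without thinning. In the library labelled WT, cells with a TPH2 UMI held SLC17A8 in 43.2%, 52.9%, 45.7% and 50.3% of cases from the shallowest band (1000 to under 5000 UMIs) to the deepest (20000 and more). Cells without TPH2 did so in 14.04%, 25.3%, 24.2% and 27.9%. For the library labelled FKO the shares were 26.8%, 19.9%, 22.7% and 42.4% with TPH2 and 14.7%, 13.4%, 11.1% and 22.2% without. Thus SLC17A8 was more frequent beside TPH2 in every band of each library, although the intervals overlapped in the deepest band labelled FKO, which had 203 cells with TPH2 and 36 without.

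**Figure D2:**
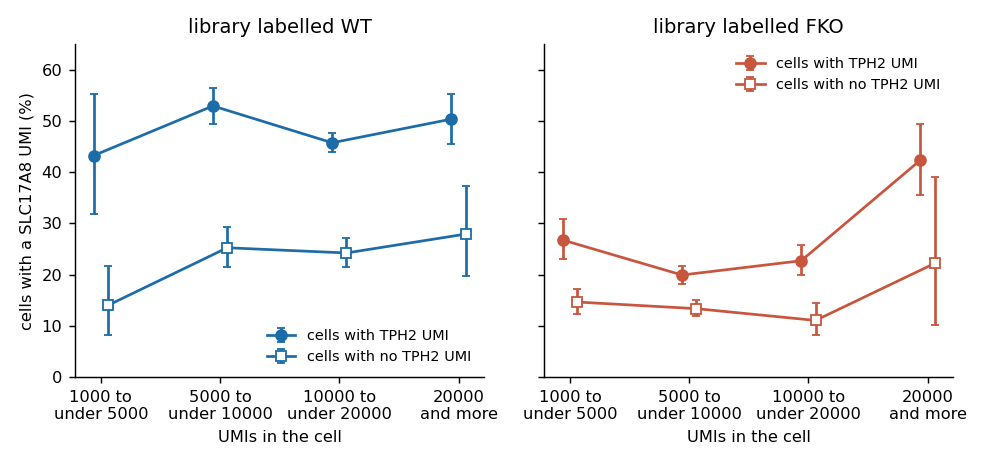
Share of cells with a SLC17A8 UMI (percent) by UMIs per cell, for cells with a TPH2 UMI (filled circles) and without (open squares), in the library labelled WT (left) and the library labelled FKO (right), with exact 95% binomial intervals. The filled points lie above the open ones in all bands, from 43.2% against 14.04% to 50.3% against 27.9% on the left.

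The level of SLC17A8 was higher in shallow cells. From the shallowest band to the deepest it was 343, 246, 166 and 87.8 CPM in the library labelled WT and 229, 144, 53.6 and 56.9 CPM in the library labelled FKO. It was lower in the library labelled FKO in each band, with intervals apart in all. Depth within a band was not equal. The medians labelled WT and FKO were 3233 and 4041 UMIs in the shallowest band and 8616.5 and 6865 in the next. The part of depth in the difference was not tested. The library labelled FKO had more SLC17A6 in each band, from 11.2 against 1.74 CPM in the shallowest (with 1 UMI labelled WT, and overlapping intervals) to 14.5 against 1.80 CPM in the deepest.

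Cells of the deepest band labelled FKO differed from the rest. Among the 203 with a TPH2 UMI, 22 held GAD1 or GAD2 (10.8%, 6.92 to 15.9) and 26 held SLC17A6 (12.8%, 8.54 to 18.2). The 36 without TPH2 were no lower, at 16.7% (6.37 to 32.8) and 19.4% (8.19 to 36.0), so the high shares were not particular to cells with TPH2. For the other bands the GAD shares beside TPH2 were 0.191%, 0.471% and 2.30%. Cells with TPH2 in the deepest band labelled WT gave 2.55% for GAD1 or GAD2 and 1.39% for SLC17A6. Barcodes that hold more than 1 cell have more UMIs, and their part in this co-detection was not tested beyond removing those with the highest doublet scores.

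Cells were next split by their own FEV level. SLC17A8 in the library labelled WT stood at 23.0 CPM (14.4 to 34.8) in cells without FEV and 26.1 (22.2 to 30.4) in cells above 0 and under 500 CPM of FEV, then at 183 (178 to 188) from 500 to under 1500 CPM and 175 (171 to 179) from 1500 CPM. For the library labelled FKO these levels were 41.6 (35.5 to 48.5), 94.4 (88.3 to 101), 111 (107 to 114) and 198 (188 to 208) CPM. Over these strata SLC17A8 rose as a step in the library labelled WT and gradually in the library labelled FKO. The strata were cut on each cell's own FEV count, at unlike depths. Above 0 and under 500 CPM the medians were 13338.5 UMIs labelled WT and 7118.5 labelled FKO. The part of depth in the unlike shapes was not tested.

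Within these strata the pooled direction of SLC17A8 did not hold throughout. The log2 ratio was 0.86 in cells without FEV, 1.86 under 500 CPM, -0.72 from 500 to under 1500 CPM and 0.18 from 1500 CPM. Relative to the median gene of each stratum these were 0.39, 1.39, -1.20 and -0.30, so the last changed sign with the scaling. TPH2 moved alongside under 500 CPM, at 36.8 CPM in the library labelled WT, against 125 CPM in the library labelled FKO, and was seen in 27.3% and 40.4% of those cells. From 500 to under 1500 CPM it was 193 and 182 CPM. The higher level under 500 CPM is therefore not particular to SLC17A8, and whether a stratum holds like cells in both libraries was not tested. On the scale of library totals, the stratum of 500 to under 1500 CPM was the only 1 of 4 with a lower level in the library labelled FKO, and it held 4108 of its cells and 2111 of those labelled WT. FEV was itself lower in the library labelled FKO (910.0 against 1586 CPM), and its part in the difference was not tested.

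SLC17A6, GAD1 and GAD2 ran against FEV in each library. SLC17A6 went from 21.9 CPM (13.6 to 33.5) without FEV to 0.172 CPM (0.0690 to 0.354) in the FEV-richest cells labelled WT, and from 43.1 (36.9 to 50.2) to 0.390 (0.0805 to 1.14) in those labelled FKO. GAD1 went from 6.27 to 0.981 CPM and from 12.3 to 0.260 CPM, and GAD2 from 13.6 to 0.270 CPM and from 10.7 to 0.130 CPM. The strata without FEV were small, with 118 cells labelled WT and 629 labelled FKO. Levels of these 3 genes were highest in the FEV-poor cells that remained after the sort, although the intervals of the last strata overlapped for GAD1 and GAD2 in both libraries and for SLC17A6 in the library labelled WT.

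The pooled direction of GAD2 did not hold in every stratum either. From the FEV-poorest to the FEV-richest its log2 ratios were -0.34, -0.089, 2.46 and -1.05, with an interval away from 0 (1.11 to 4.17, from 5 and 36 UMIs) in the stratum of 500 to under 1500 CPM alone. SLC17A6 gave 0.98, 0.24, 2.99 and 1.18, of which the second lay at -0.23 relative to the median gene of its stratum. The intervals of the second and last of these held 0.

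Each library was also clustered on its own, with the 7 genes left out of the clustering. SLC17A8 was concentrated in cluster 2 of the library labelled WT, which held 82.9% of its UMIs in 1652 cells at 525 CPM (515 to 535). The leading genes of that cluster by fold over other cells were SLC17A8, COL5A2, RORB, UNCX and AKAP13. Its TPH2 level was 367 CPM and its FEV level 2001 CPM. A small cluster of shallow cells, cluster 7 with 58 cells and a median of 2285.5 UMIs, also stood high at 424 CPM (326 to 542).

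Cluster 6 of the library labelled FKO held 61.9% of the SLC17A8 UMIs in 406 cells, at 1693 CPM (1642 to 1746), and 99.0% of its cells had a SLC17A8 UMI. It was led by SLC17A8, HMX3, COL5A2, ERBB4 and MIR4500HG, with TPH2 at 368 CPM and FEV at 1134 CPM. Cluster 1 of that library, led by CARMIL1, KIT, SOX2, CALB1 and TOX, held another 20.9% at 94.7 CPM. SLC17A8 was thus carried by TPH2-bearing clusters in both libraries. With 1 library each, a cluster may be that library and not a type.

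SLC17A6 lay in other clusters. Cluster 6 of the library labelled WT (116 cells, led by MAB21L1, OTP, LHX5-AS1, LAMP5 and NRN1) held 73.5% of its UMIs at 47.5 CPM (38.0 to 58.7). Cluster 4 of the library labelled FKO (688 cells, led by SPARCL1, SULF1, ID3, TFF3 and LINC00261) held 83.3% at 49.1 CPM (44.1 to 54.5). TPH2 stood at 29.3 CPM in the former and 50.6 CPM in the latter, and FEV at 339 and 342 CPM. These levels of SLC17A6 had overlapping intervals, and a SLC17A6 UMI was seen in 33 of the 116 cells and in 150 of the 688.

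The GABA genes shared these FEV-poor clusters in part. Cluster 4 of the library labelled FKO held 66.7% of the GAD1 UMIs, 45.0% of those of GAD2 and 80% of those of SLC32A1. GAD2 reached 107 CPM (72.4 to 153) in cluster 8 of that library, 24 cells led by HCRT, C1QL3, C19orf85, VGLL2 and PDYN, where 70.8% of cells held it. Cluster 8 had 8949 CPM of neuron and 1209 CPM of serotonergic markers. It also had 1335 CPM of radial glia or astrocyte markers (3 of 7 detected) and 272 CPM of floor plate markers (4 of 6 detected). In the other library 46% of the GAD2 UMIs lay in cluster 4, led by SST, ONECUT3, EBF1, ONECUT1 and ONECUT2, and 54.5% of the SLC32A1 UMIs in cluster 6. Cluster 5 of that library, led by MKI67, TOP2A, CCNB2, HES1 and DLGAP5, held another 28% of the GAD2 UMIs and 15.1% of those of GAD1. It had 795 CPM of cycling, 772 CPM of floor plate, 629 CPM of radial glia or astrocyte and 596 CPM of mesenchymal markers. Its neuron markers summed to 943 CPM and its serotonergic markers to 519 CPM. Of the cells used there to gauge background, 1 of 40 cycling and 0 of 65 collagen cells held GAD1 unthinned, and none held GAD2. For GAD1 the largest part labelled WT was in cluster 2 (38.7%, at 2.09 CPM), the cluster richest in SLC17A8.

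Thinned cells with and without a SLC17A8 UMI were then compared for 10 serotonergic markers. The interval of the log2 ratio lay above 0 for 6 of 10 in the library labelled WT and for 7 of 10 in the library labelled FKO, where 5.58% of 15796 and 5.86% of 17821 genes with a ratio did so. An interval of a gene with many UMIs is narrower and leaves 0 more easily, so these shares are a loose background. TPH2 was 394 against 168 CPM in the library labelled WT (log2 1.23, 1.11 to 1.36) and 324 against 145 CPM in the library labelled FKO (log2 1.16, 1.01 to 1.30). GATA2, a zinc-finger factor of early serotonergic commitment, was 67.2 against 21.1 CPM and 55.4 against 43.3 CPM. MAOB, a monoamine oxidase, was 232 against 170.5 CPM and 208 against 126 CPM.

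Not all serotonergic genes followed. An interval below 0 was found for 0 of 10 in the library labelled WT, where 7.63% of all genes with a ratio had one, and for 2 of 10 in the other, where 7.91% did. SLC18A2, the vesicular monoamine transporter, was 13.1 against 18.9 CPM in the library labelled WT, with an interval that held 0, and 37.8 against 50.4 CPM in the library labelled FKO (log2 -0.41, -0.83 to -0.02). DDC, the decarboxylase that completes serotonin synthesis, was 258 against 272 CPM and 179.9 against 232 CPM, the latter at a log2 ratio of -0.37 (-0.55 to -0.19). SLC17A8 cells thus had more of the TPH2, GATA and MAOB transcripts, but not of those of DDC and SLC18A2. For SLC6A4 (SERT) the intervals of the libraries overlapped, so no difference between them is read. Its log2 ratio was 0.42 (0.07 to 0.75) labelled FKO, while labelled WT the interval held 0 (-0.08, -0.59 to 0.39).

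SLC17A6 cells labelled FKO were low in most serotonergic markers. In the library labelled FKO, 8 of 10 serotonergic markers had an interval below 0 in the 75 thinned SLC17A6 cells, among them FEV (207 against 940.3 CPM, log2 -2.19, -2.74 to -1.68). Over all 12302 genes with a ratio in this comparison 1.88% lay below 0 and 4.24% above. Of the 31 transcription factors listed, 5 had an interval above 0, 2 below (GATA2 and GATA3, which are among the serotonergic markers too), 6 held 0 and 18 gave no ratio. Among those above were LHX9, a LIM-homeodomain factor, at 193 against 6.56 CPM (log2 4.88, 4.22 to 5.50), POU4F1 at 80 against 0.590 CPM and LHX1 at 80 against 11.7 CPM. Only 14 such cells were available in the library labelled WT, where LHX9 had 5 UMIs in them (log2 8.40, 6.35 to 10.37) and 5 of the 10 serotonergic markers had none. There 2 of the 10 lay below 0, and 3 of the 31 factors above and 1 below, beside 4.65% above and 0.703% below over all genes with a ratio.

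Cells with GAD1 or GAD2 were compared for the same 31 factors. In the library labelled FKO, 8 had an interval above 0 (LHX2, LHX9, LHX1, LHX5, SOX14, DLX1, DLX2 and DLX6), 1 below (GATA3), 5 held 0, DLX5 among them, and 17 gave no ratio. Over all 10689 genes with a ratio there, 3.45% lay above and 1.08% below. LHX1 had the most UMIs of the 8, at 156 against 11.5 CPM (14 UMIs in GAD cells), then LHX9 at 133 against 7.78 CPM (12 UMIs), and both were also above in SLC17A6 cells. DLX1 was at 77.8 against 0.661 CPM in the 45 thinned GAD cells labelled FKO (log2 6.88, 5.22 to 8.47), and SOX14 at 77.8 against 1.10 CPM (log2 6.14, 4.61 to 7.52). In the 23 such cells labelled WT, 3 factors were above, 1 below (GATA3), 3 held 0 and 24 gave no ratio, and few UMIs stood behind each value: DLX5 had 6 (log2 8.21, 6.23 to 10.26), DLX2 had 4 and DLX1 had 3. Over all 7189 genes with a ratio in that library 3.17% lay above and 0.765% below. Of the 10 serotonergic markers, 2 lay below 0 in GAD cells labelled WT, against 6 in GAD cells labelled FKO. FEV was lower in GAD cells of each library, at 1065 against 1603 CPM (log2 -0.59, -1.03 to -0.19) and 300 against 936 CPM (log2 -1.64, -2.24 to -1.10). TPH2 was lower in those labelled FKO, while the interval of those labelled WT held 0.

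The genes most like SLC17A8 across cells were ranked by Pearson correlation of analytic Pearson residuals among 14193 genes, taking the lower value of the libraries. They were RALYL (r of 0.535 over 5722 cells labelled WT and 0.531 over 6974 labelled FKO), COL5A2 (0.620 and 0.513), SOX1 (0.414 and 0.400), CACNA2D1 (0.351 and 0.475) and PDZRN4 (0.347 and 0.426). TPH2 reached 0.363 and 0.185, and FEV 0.0692 and 0.0816. Cells of a library share its depth, sort and free RNA, so these values are descriptions. For GAD1 the only gene at or above 0.15 in both libraries was MEIS2 (0.210 and 0.296). The other 5 genes were seen in under 1% of the cells of a library.

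Glutamate, GABA and glycine are also made, cleared and degraded by other proteins, which were followed as fixed lists. Of 15 genes of glutamate metabolism and uptake, 14 were tested, with 1 at least 2-fold above the median gene in the library labelled FKO and 0 below, and a median log2 ratio of 0.85 beside the 0.59 of all genes. Over all genes 12.7% lay that far above and 11.6% that far below, and the counts of each list are to be read beside these shares. The gene above was SLC1A2, a plasma membrane glutamate transporter, at 28.9 and 106 CPM (log2 1.88). SLC38A1, a glutamine carrier and the most abundant of the list, was at 138 and 238 CPM.

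For GABA, 6 of 7 genes of metabolism and uptake were tested, with 2 above and 0 below 2-fold and a median log2 ratio of 1.23. Among those above was SLC6A11, at 0.777 and 4.40 CPM. ABAT, the enzyme that degrades GABA, was the most abundant at 100.1 and 130.1 CPM. Of 7 genes of glycine metabolism, uptake and anchoring, all tested, AMT was above (0.830 and 4.28 CPM) and GCSH below (105 and 77.0 CPM), both parts of the glycine cleavage system, and the median was 0.30. These 3 lists summed to 486, 145 and 189 CPM in the library labelled WT and 872, 219 and 169 CPM in the library labelled FKO, and none of their genes was at 0.

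Transcription factors of glutamatergic or inhibitory neurons were a list of 31, of which 19 were tested. The library labelled FKO had 7 at least 2-fold above the median gene (TLX3, LHX9, POU4F1, NEUROD1, LHX1, SOX14 and DLX5), 1 below, and a median log2 ratio of 1.12, beside 12.7% above, 11.6% below and 0.59 over all genes. The list summed to 669 and 973 CPM, most of it GATA3 (595 and 816 CPM). LHX9 was at 0.777 and 8.52 CPM and LHX1 at 2.03 and 10.9 CPM. Of the 31, 7 had no UMI in the library labelled WT (ATOH1, BARHL1, BARHL2, NEUROD6, PTF1A, TAL1 and HELT), and 3 had none in the other library (ATOH1, HELT and GSX1).

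Markers of other cell types moved with the labels as well, and their part in the differences was not tested. The same 12.7% and 11.6% of all genes are the background of the counts past 2-fold in these lists. Serotonergic markers summed to 2998 CPM in the library labelled WT, against 2534 CPM in the library labelled FKO, with 10 of 10 tested, 0 above, 1 below (FEV, the most abundant) and a median log2 ratio of 0.18. Mesenchymal markers summed to 36.9 and 229.7 CPM, with 3 of 5 above, 0 below, a median of 1.81 and COL1A1 at 1.94 and 76.9 CPM. LUM was the most abundant of them in the library labelled WT (12.4 CPM) and COL1A2 in the library labelled FKO (84.6 CPM). The 4 oligodendrocyte-lineage markers summed to 1.22 and 12.7 CPM with 3 above, 0 below and a median of 3.53, in which SOX10 (0 and 391 UMIs, log2 at least 7.43) stands at its bound. OLIG2 was the most abundant of them labelled WT and SOX10 labelled FKO. In cluster 7 of the library labelled FKO (198 cells) they summed to 212.5 CPM, beside 5825 CPM of mesenchymal markers.

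Floor plate markers summed to 50.1 and 72.6 CPM, with SPON1 the most abundant, FOXA2 and FOXA1 above, SHH and CORIN below, and a median of 0.54. Cycling markers summed to 47.2 and 61.7 CPM (CENPF most abundant, 1 of 5 below, UBE2C, median 0.45), and the 5 neuron markers to 5570 and 8265 CPM (STMN2 most abundant, 0 past 2-fold, median 0.53). Radial glia or astrocyte markers summed to 201 and 169 CPM, led by SOX2, with 5 of 7 tested, 0 past 2-fold and a median of -0.20. Of the serotonergic, mesenchymal, oligodendrocyte, floor plate, cycling, neuron and radial glia markers, only SOX10 was at 0, in the library labelled WT.

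Cholinergic motor markers summed to 6.43 and 3.44 CPM, with 3 of 4 tested below, among them SLC5A7 and SLC18A3, a median of -1.44, and SLC5A7 (labelled WT) and ISL1 (labelled FKO) the most abundant. The only catecholaminergic marker tested, TH, was below at 16.6 and 7.06 CPM (log2 -1.23), and that list of 5 summed to 16.6 and 7.16 CPM with SLC6A2 at 0 UMIs in the library labelled WT. Somatostatin LIM neuron markers summed to 12.1 and 17.4 CPM: SST, the most abundant labelled WT, was below (6.48 and 1.65 CPM), and LHX1, the most abundant labelled FKO, and POU4F1 were above, with a median of 0.48. Pluripotent markers were near 0, at 0.869 and 0.921 CPM summed, with 1 of 3 tested (LIN28A, the most abundant, log2 -0.08), neither above nor below. Some lists share genes: LMX1B, GATA2, GATA3, ISL1, LHX1, LHX5 and POU4F1 are among those also in the list of transcription factors, and SLC1A3 is also in the glutamate list.

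The clusters that held SLC17A6 also held such markers. Cluster 4 of the library labelled FKO summed to 375.5 CPM of floor plate, 483.6 CPM of radial glia or astrocyte, 243.5 CPM of cycling and 108.6 CPM of somatostatin LIM neuron markers. That cluster also had 130.9 CPM of mesenchymal, 6478 CPM of neuron and 1031 CPM of serotonergic markers. Cluster 6 of the library labelled WT had 128.7 CPM of the radial glia or astrocyte list and 122.1 CPM of the LIM list. Its floor plate, mesenchymal and cycling lists summed to 6.63, 4.97 and 2.76 CPM, and its neuron and serotonergic lists to 6547 and 580 CPM. These sums are over all cells of a cluster. A SLC17A6 UMI was seen in 150 of 688 cells labelled FKO and 33 of 116 labelled WT. The SLC17A8-rich clusters had 3814 CPM (labelled WT) and 3178 CPM (labelled FKO) of serotonergic markers. Between the libraries SLC17A6 differed in the share of thinned cells that held it (0.247% and 1.09%). Its levels in cluster 6 labelled WT and cluster 4 labelled FKO were 47.5 and 49.1 CPM, and 6.09% and 9.82% of their thinned cells held it. These clusters were called apart and differed in floor plate and cycling markers. Whether like cells had like levels was not tested.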

How the data were processed

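The deposited values are UMI counts of genes by barcode, not normalized by the authors, for 1 library labelled WT and 1 labelled FKO. The submitters' processing notes name Cell Ranger 7.0 and GRCh38, while the file headers name Cell Ranger 7.1.0. The annotation release and whether introns were counted are not given in the sources used here.

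Barcodes under 1000 UMIs, under 500 genes or above a mitochondrial share of 10% were left out. So were those with the highest Scrublet scores, at 0.8% per 1000 barcodes, as doublets (977 labelled WT and 620 labelled FKO). The kept cells held 75930127 and 57543454 UMIs. UMIs were summed over kept cells and divided by the library total. Ratios were also set against the median of genes with at least 50 summed UMIs, and against the median gene in the same quintile of GENCODE 29 gene length. A fold call is 2-fold from the median gene, and in a ratio a count of 0 stands at 3 counts. Shares of cells were compared after thinning each cell at random to 2000 UMIs.

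With 1 library per condition no test was run. Intervals are exact 95% intervals and cover counting error only. Libraries were clustered apart with scanpy 1.11.5 and igraph 0.11.9 (2000 variable genes without the 7 genes, 30 components, 15 neighbours, Leiden at resolution 0.3). The other tools were python 3.11.15, numpy 2.4.6, scipy 1.17.1, pandas 2.3.3, anndata 0.12.19, scikit-learn 1.9.0 and matplotlib 3.10.9, and promoters came from RefSeq GRCh38.p14. The calculations were tested on simulated data.

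Named genes are the 7 genes, the fixed pathway, transcription factor and marker lists, up to 5 genes most like a member seen in at least 1% of cells of both libraries (lower correlation at least 0.15), and the 5 genes leading each cluster by fold among those with at least 50 CPM in it. Other genes were named after their values were seen. Some genes of the lists are counted in them but not reported here by name. The members and lists were chosen with earlier results of these data known. Alternatives were other mitochondrial, UMI and summed-count limits, doublets kept, equal weight per cell, other reference genes, cells with TPH2 and FEV only, other thinning depths, at least 2 UMIs of 1 gene without thinning, and TPH2 and FEV required before thinning. Other random draws and the share expected over all draws were chosen after seeing the data.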

Additional observations from a re-analysis of the deposited data

Results flagged for a closer look

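The difference between libraries in SLC17A8 had opposite signs in cells of unlike FEV level. FKO over WT on the log2 scale was 1.86 (1.61 to 2.11) in cells above 0 and under 500 CPM of FEV, from 160 and 881 UMIs in 414 and 1112 cells. It was -0.72 (-0.78 to -0.67) in cells from 500 to under 1500 CPM of FEV, from 5139 and 4055 UMIs. TPH2 also rose under 500 CPM of FEV, from 36.8 CPM labelled WT to 125 CPM labelled FKO, and was 193 and 182 CPM from 500 to under 1500, so the higher level under 500 CPM is not particular to SLC17A8. Median depths under 500 CPM were 13338.5 UMIs labelled WT and 7118.5 labelled FKO. From 500 to under 1500 CPM they were 12767 and 7254. Whether a stratum holds like cells in both libraries, and the part of depth in its membership, was not tested. The criterion that picked this result was tightened after its values were seen. The difference between these strata was not tested, and with 1 library per condition it has no replicate check.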

How the results depend on the processing

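No paired analysis was possible because each condition had 1 library. Depth limits the rarer genes: SLC17A7, SLC32A1 and SLC6A5 had at most 20 UMIs in a library, and a mitochondrial limit of 5% left 337 cells labelled WT and 2905 labelled FKO. Where a value moved, the cause was not tested.

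The glutamate transporter share of cells with TPH2 and FEV (27.8% and 17.8%) was higher in the library labelled WT in all settings run. In that library it was 34.4% with up to 20% mitochondrial UMIs, 38.2% with up to 5%, 37.0% thinned to 5000 UMIs, 48.0% without thinning and 20.6% with TPH2 and FEV required before thinning. In the library labelled FKO it was 11.9% with up to 5% mitochondrial UMIs, 24% without thinning, 15.4% with at least 2 UMIs of 1 gene and no thinning, and 13.6% with both markers required before thinning.

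The GAD1 or GAD2 share labelled WT (0.657%) was 0.199% in another random draw, chosen after seeing the data, 0.260% with up to 20% mitochondrial UMIs, 0% with up to 5%, 1.69% without thinning and 0.147% with at least 2 UMIs of 1 gene and no thinning. That labelled FKO (0.223%) was 1.42% without thinning. The order of the libraries turned with at least 2 UMIs of 1 gene and no thinning (0.389% labelled FKO), beside the order with 1 UMI and no thinning, and with up to 5% mitochondrial UMIs (0.164%).

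With at least 10 summed UMIs, 2 of the 7 genes lay at least 2-fold above the median gene, SLC17A7 being added. With at least 500, 0 lay as far below it, SLC17A8 losing its call.

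Of 48 settings for the log2 ratios of 6 genes, 29 gave a value within the 95% interval of the reported one, 16 moved outside it and 3 had the other sign. For SLC17A7, -1.12 with up to 5% mitochondrial UMIs is a lower bound from 0 and 10 UMIs and turns no direction. GAD1 turned to -0.11 in cells with TPH2 and FEV and to -0.057 against the median gene of like length. SLC17A6 moved to 1.65 (up to 5% mitochondrial UMIs), 1.67 (median gene) and 1.59 (median gene of like length). SLC17A8 moved to -0.94 (up to 20%), -0.86 (up to 5%), -0.62 (cells with TPH2 and FEV), -0.34 (cells weighted equally), -1.10 (median gene) and -1.18 (like length). GAD1 moved to 1.05 (up to 5%) and 0.02 (median gene). GAD2 moved to 2.50 (up to 5%), 2.26 (cells with TPH2 and FEV), 0.85 (cells weighted equally), 0.93 (median gene) and 0.85 (like length).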

Other observations

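Cells with glutamate and GABA genes together were few, as were all thinned cells with GAD1 or GAD2 (23 labelled WT and 45 labelled FKO). In the thinning draw reported, 10 cells labelled WT (0.176%, 0.0845 to 0.324) and 2 labelled FKO (0.0292%, 0.00353 to 0.105) held a vesicular glutamate transporter and GAD1 or GAD2, and 6 and 0 of these also held TPH2 and FEV. Unthinned, at unlike depths, such cells numbered 60 and 47, of which 50 and 32 held TPH2 and FEV. Unthinned cells with GAD1 or GAD2 and no such transporter numbered 50 labelled WT and 86 labelled FKO. Cells with both were thus not rare among unthinned GAD cells of either library. Of all kept cells, 40.6% and 20.1% held a vesicular glutamate transporter without GAD1 or GAD2. The share in background cells was not counted, and no order between the libraries is read from these values. Thinned cells with neither made up 82.1% and 87.1%.

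Among thinned cells with TPH2 and FEV, 12.8% labelled WT and 7.51% labelled FKO held exactly 1 SLC17A8 UMI, and 9.01% and 7.14% held 3 or more. The Fano factor of SLC17A8 (variance over mean of thinned counts) was 3.32 over all thinned cells labelled WT and 4.21 over those labelled FKO.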
